A study of Mus musculus with 18 samples.

Results

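The comparison described here is between 18 h and 6 h of B cell receptor (BCR) stimulation in 2 clones of WEHI-231 mutated in TFEB, #A-59 and #B-20. WEHI-231 is a mouse lymphoma line with the features of an immature B cell. The comparison was set by the labels alone, as the 4 libraries of both clones at 18 h against the 4 at 6 h, with the clone as a term of the model, and used 8 of the 18 libraries of the series. All 8 came from cells stimulated with 10 µg/ml F(ab')2 fragments against IgM, so that untreated cells had no share in the contrast and entered only as values given beside it. The other groups were the untreated clones (0 h) and parental WEHI-231 cells, with an unmutated Tfeb gene, at 0, 6 and 18 h. Each group had 2 libraries. The paper speaks of independent experiments, the labels do not say what separates them, and p-values measure the spread between these samples. Each mutant line was a single clone, obtained by Cas9 cutting in an early exon of Tfeb and limiting dilution. A difference between the clones cannot be told apart from variation among clones. In a difference of the clones from parental cells, loss of TFEB cannot be told apart from effects of editing and cloning.

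BCR ligation switches on immediate early genes, the ERK and NF-κB pathways, Myc, ribosome production and metabolism within hours, and in WEHI-231 cells, a classic model of B cell tolerance, sustained ligation ends in growth arrest and apoptosis. TFEB is a basic helix-loop-helix leucine zipper factor of the MiT/TFE family that binds E-box-like elements in promoters of lysosomal and autophagy genes and enters the nucleus when mTORC1 activity is low. The gene lists below cover these pathways, together with antigen presentation, positioning and survival of B cells.

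RNA was sequenced from non-stranded mRNA libraries, and the values are reads counted on each gene, expressed as counts per Mio (CPM) after TMM normalization. The 8 libraries held 15733691 to 27472928 counts. The first component of a principal component analysis (48.7% of the variance) separated the clones and the second (28.1%) the times. #B-20 6 h replicate 2 stood apart. It held 24256 detected genes against 21308 to 23278 in the others, its 10 most abundant genes took 6.69% of counts against 4.001 to 4.54%, and the mitochondrial ribosomal RNA mt-Rnr2 reached 3794 CPM against 242 to 823 CPM. Counts are therefore given below also without this library. B cell markers summed to 6567 to 8635 CPM at 6 h and 10135 to 14057 CPM at 18 h, whereas T cell markers summed to at most 21.3 CPM and natural killer cell, fibroblast and erythroid markers to at most 0.675 CPM. Myeloid markers summed to 2.80 to 11.5 CPM at 6 h and 7.04 to 27.9 CPM at 18 h, with 4 of 9 markers at 0 in every library of a time (Cd14, S100a8 and S100a9 at both). Itgam made up most of this sum, with 26.3 and 26.1 CPM in #A-59 at 18 h. Of the 3 myeloid markers tested, Itgam rose (1.81) and Csf1r fell (−1.56), with a median of −0.53. Csf1r, the receptor for macrophage growth factor, was at 2.16 and 0.965, then 0.628 and 0.663 CPM in #A-59, and at 0.492 and 0.261, then 0.0710 and 0.0745 CPM in #B-20, and its call was lost without each of 7 of the 8 libraries. The part of myeloid cells in the results was not tested.

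Tfeb transcripts were present in both clones. Here and below, the values of replicates 1 and 2 at 6 h are followed by those of replicates 1 and 2 at 18 h. Tfeb was at 30.4 and 29.8, then 35.4 and 40.5 CPM in #A-59, and at 45.4 and 50.6, then 42.2 and 54.0 CPM in #B-20. Untreated clones had 25.5 to 39.1 CPM. Parental cells had 79.1 to 99.8 CPM over the 3 times, above every library of the clones. Between the times the difference in the clones was 0.18 ± 0.11 (log2 fold change ± SE, here and below) with an adjusted p of 0.212 (quasi-likelihood test of edgeR, adjusted by Benjamini-Hochberg). Gene counts show neither the mutation nor the protein, so they do not check the genotype.

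A gene was called changed when the FDR was under 0.01 and the log2 fold change above 1 or below −1. Of 14681 genes tested, 929 were called (6.33%), of which 543 were higher (3.70%) and 386 lower (2.63%) at 18 h. At an unadjusted p under 0.05 there were 7423 of the 14681 genes, to be set beside such counts for the lists below. Leaving out #B-20 6 h replicate 2 gave 939 calls, 517 higher and 422 lower, with 814 of the 929 among them. Leaving out #A-59 18 h replicate 1 lowered the number of lower genes to 251. In 731 of the 929 called genes (78.7%) the 4 libraries at 18 h lay all above or all below the 4 at 6 h, which was so for 28.0% of all genes tested. The change had the same sign in each clone for 928 of the 929. Most called genes were protein-coding (756, or 81.4%), 511 had a mean of at least 5 CPM, 150 had less than 1 CPM, and 91 changed by more than 2 on the log2 scale, 50 upward and 41 downward. The median log2 fold change over all genes tested was 0.02.

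**Figure D1:**
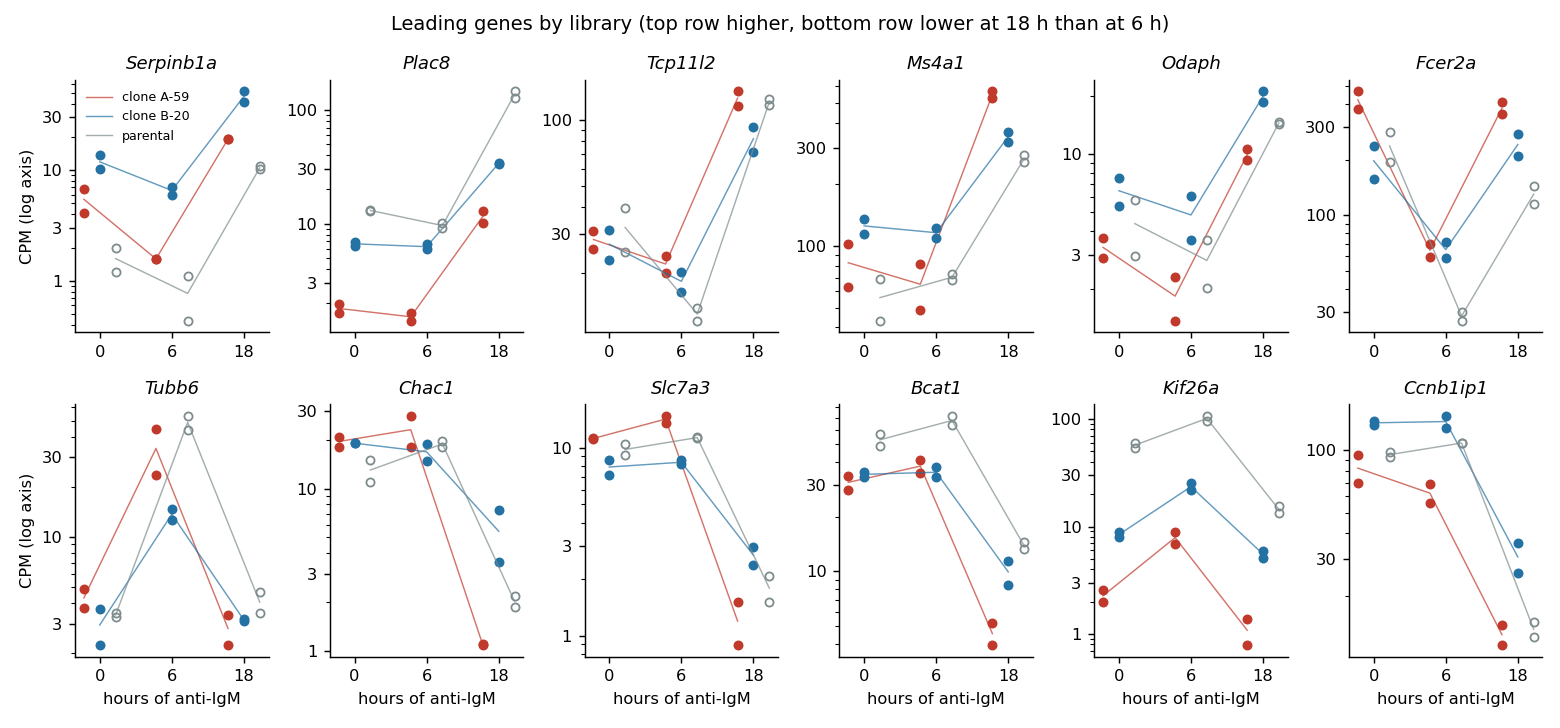
CPM on a log axis against hours of stimulation for the 6 leading genes in each direction, with 1 point per library, lines through the group means, #A-59 in red, #B-20 in blue and parental cells as open grey circles. By the rule that picked these genes, the 4 clone points of 18 h lie all above or all below the 4 of 6 h in each. Plac8, for example, lies at 10.2 to 33.9 CPM against 1.40 to 6.59 CPM.

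The gene with the highest fold among those with at least 5 CPM and no overlap between times was Serpinb1a, an intracellular inhibitor of serine proteases such as neutrophil elastase. It was at 1.59 and 1.57, then 19.1 and 19.2 CPM in #A-59, and at 6.00 and 7.11, then 41.1 and 51.7 CPM in #B-20. The change was 3.15 ± 0.17 (8.86-fold, adjusted p 2.65e-06, from the edgeR test above, as for all adjusted p-values below). At 0 h, outside the contrast, it was at 4.13 and 6.78 CPM in #A-59 and 10.2 and 13.6 CPM in #B-20, and thus lay between the 2 stimulated levels. Serpinb1a belongs to a family of close paralogs that counts do not fully resolve.

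Plac8, which encodes a small cysteine-rich protein, came next. It was at 1.40 and 1.63, then 10.2 and 12.95 CPM in #A-59, and at 5.95 and 6.59, then 33.9 and 33.8 CPM in #B-20. #B-20 lay above #A-59 at both times, and over both clones the change was 2.65 ± 0.15 (6.28-fold, adjusted p 2.70e-06). The promoter of Plac8, from 250 bases before to 50 after its start (RefSeq, GRCm38.p6, chr5:100572156-100572455, minus strand), is shown as that of a leading gene. Capitals mark a CCAAT box, CCAATCAG, which is CTGATTGG read on the other strand.
Plac8: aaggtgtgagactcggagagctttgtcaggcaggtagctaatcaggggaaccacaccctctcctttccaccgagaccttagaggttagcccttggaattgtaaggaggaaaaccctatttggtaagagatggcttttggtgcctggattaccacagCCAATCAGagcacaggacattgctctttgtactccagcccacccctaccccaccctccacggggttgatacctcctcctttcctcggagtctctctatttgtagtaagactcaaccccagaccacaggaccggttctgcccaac

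The 3 leading genes described next encode surface proteins. They did not follow Plac8 directly in fold, as Tcp11l2 (2.36) came before them and Odaph (2.26) among them. Ms4a1, which encodes CD20, was at 48.8 and 81.3, then 569 and 527 CPM in #A-59, and at 109 and 123, then 322 and 360 CPM in #B-20. The change was 2.33 ± 0.31 (adjusted p 0.000502), and without a filter on low counts it missed the threshold (adjusted p 0.0112). Fcer2a, the low-affinity IgE receptor CD23, was at 59.4 and 70.2, then 406 and 350 CPM in #A-59, and at 58.7 and 71.8, then 209 and 273 CPM in #B-20 (2.23 ± 0.15, adjusted p 5.95e-06). The 0 h levels of Fcer2a, 373 and 467 CPM in #A-59 and 158 and 236 CPM in #B-20, were near those of 18 h, so that its course over the 3 times was down and back. Itgb7, the β7 integrin chain, was at 31.5 and 28.1, then 126 and 111 CPM in #A-59, and at 7.13 and 8.22, then 40.8 and 35.3 CPM in #B-20 (2.15 ± 0.11, adjusted p 2.65e-06). As the rule for the leading genes required, every library at 18 h lay above every library at 6 h of both clones for all 3 genes.

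Gsn, which encodes the actin-severing protein gelsolin, was at 135 and 115, then 509 and 391 CPM in #A-59, and at 66.9 and 77.1, then 379 and 279 CPM in #B-20 (2.03 ± 0.14). Tcp11l2 was at 20.02 and 23.9, then 135 and 116 CPM in #A-59, and at 16.4 and 20.2, then 92.7 and 71.6 CPM in #B-20 (2.36 ± 0.13). The rest of the 15 leading genes that rose were Odaph (2.26), H2-Ob (2.10), Pld5 (2.06), Fry (2.05), Dusp6 (1.99), Plxnc1 (1.99), the semaphorin receptor plexin C1, B3gnt5 (1.96), a glycolipid glycosyltransferase, and Gm45552 (1.95). Of these genes Fcer2a overlaps Trappc5 and Pld5 overlaps Rbm8a2 on the genome, whose counts were 28.1% and 25.3% of theirs, and unstranded counts do not separate such pairs.

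Among the genes that fell, Tubb6, a β-tubulin isotype, changed most. It was at 44.3 and 23.7, then 3.40 and 2.23 CPM in #A-59, and at 14.8 and 12.6, then 3.12 and 3.21 CPM in #B-20 (−2.82 ± 0.31, 7.04-fold lower, adjusted p 7.62e-05). Untreated clones held 2.23 to 4.87 CPM, a range that overlaps the 2.23 to 3.40 CPM of 18 h. Ccl22, a chemokine that attracts cells bearing Ccr4, was at 558 and 478, then 125 and 90.1 CPM in #A-59, and at 770 and 616, then 171 and 182 CPM in #B-20 (−2.11 ± 0.13, adjusted p 4.29e-06). Its 0 h level was 265 and 270 CPM in #A-59 and 329 and 328 CPM in #B-20, between the 2 stimulated levels.

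Several of the leading lower genes encode enzymes and transporters of amino acid and polyamine metabolism. Bcat1, the cytosolic branched-chain aminotransferase, was at 41.1 and 34.8, then 3.93 and 5.18 CPM in #A-59, and at 37.3 and 32.9, then 11.4 and 8.46 CPM in #B-20 (−2.37 ± 0.24, adjusted p 3.71e-05). Srm, spermidine synthase, was at 129 and 94.6, then 26.0 and 31.9 CPM in #A-59, and at 166 and 164, then 42.4 and 65.0 CPM in #B-20 (−1.77 ± 0.15). The amino acid transporter gene Slc7a3, the asparagine synthetase gene Asns and Chac1 are described with their list below. Ccnb1ip1, a ubiquitin ligase known from meiotic recombination, was at 55.7 and 68.8, then 11.5 and 14.4 CPM in #A-59, and at 147 and 129, then 25.6 and 35.8 CPM in #B-20 (−2.20 ± 0.13, adjusted p 3.15e-06). Kif26a (−2.35), Ppp1r14c (−1.94), an inhibitor of protein phosphatase 1, the desaturase Fads2 (−1.92), Chlsn, Arhgdig and Ankrd13b (−1.78 each) and Nefh (−1.65) completed the 15. The counts of Ap1b1, which overlaps Nefh, were 356% of those of Nefh.

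**Figure D2:**
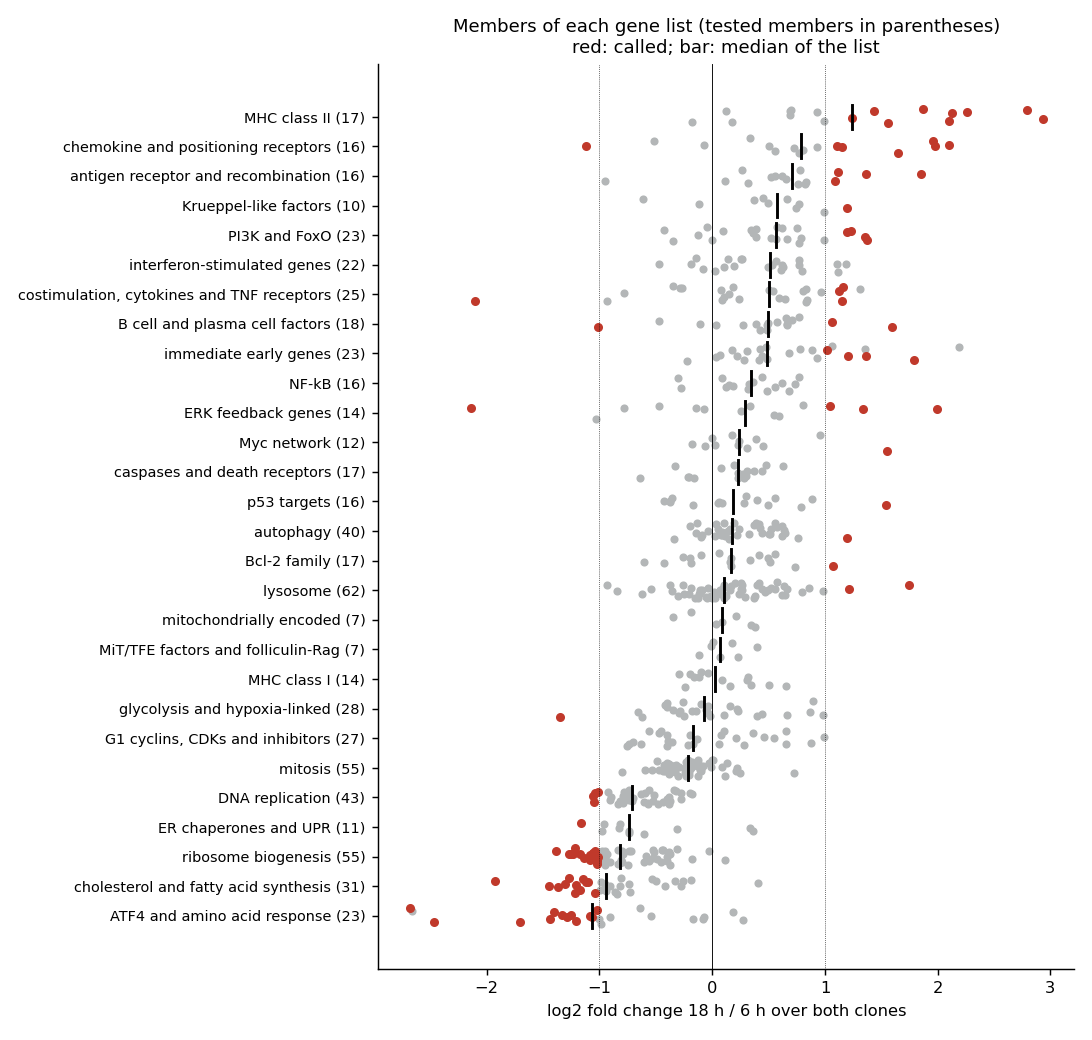
Log2 fold change of 18 h over 6 h in the clones for the tested members of each gene list, 1 point per gene, called members in red and the median of the list as a black bar. MHC class II genes sit highest (median 1.24), the ATF4 and amino acid response list lowest (median −1.07), and the median over all genes tested is 0.02.

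The genes were next read by lists, whose called members are to be set beside the 6.33% called of all genes tested. The first list held genes of MHC class II antigen presentation, by which B cells show peptides to helper T cells. They are switched on by the coactivator Ciita acting through factors bound to conserved promoter boxes, and H2-DM and H2-O edit or restrain peptide loading. Of 18 listed genes 17 were tested, and 9 rose and 0 fell, with a median log2 fold change of 1.24 (1.20 in #A-59 and 1.26 in #B-20). Ciita was at 9.23 and 9.41, then 43.9 and 45.0 CPM in #A-59, and at 1.43 and 1.76, then 4.83 and 6.71 CPM in #B-20 (2.13 ± 0.14, adjusted p 5.75e-06). Its level at 6 h in #A-59 was thus above that at 18 h in #B-20, and the change was 2.25 in #A-59 and 1.87 in #B-20. Dexi overlaps Ciita and had 67.1% of its counts.

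Among the class II chains H2-Aa was at 9.50 and 11.2, then 57.7 and 56.8 CPM in #A-59, and at 0.934 and 1.57, then 3.41 and 4.51 CPM in #B-20 (2.26 ± 0.18, adjusted p 1.27e-05). H2-Eb1 was at 30.3 and 26.9, then 130 and 125 CPM in #A-59, and at 9.25 and 10.4, then 28.8 and 26.7 CPM in #B-20 (1.87 ± 0.13). For both chains the 2 clones did not share a range at either time. Cd74, the invariant chain, was at 739 and 678, then 2143 and 1889 CPM in #A-59, and at 278 and 347, then 790 and 778 CPM in #B-20 (1.43, 2.70-fold). H2-Ea (2.93), H2-DMb1 (1.56), H2-DMb2 (1.24) and H2-Ob (2.10) rose as well. H2-Ob was at 14.2 and 15.7, then 71.7 and 58.3 CPM in #A-59, and at 7.57 and 8.55, then 36.5 and 29.7 CPM in #B-20.

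H2-Ab1 was also called (2.79 ± 0.58, adjusted p 0.00282), on 14 and 6 counts at 6 h and 101 and 72 counts at 18 h in #A-59. In #B-20 it had 0 and 6 counts and then 6 and 6 counts, so that no change could be read there, and the call was lost with DESeq2, in the fit to all 18 libraries, and without #A-59 6 h replicate 1 or 2 or #A-59 18 h replicate 1. The members that were not called included H2-DMa (0.99), H2-Oa (0.93) and the promoter-binding factor gene Rfx5 (0.70), and the lowest was Rfxap (−0.18). MHC class I genes had a median of 0.03, with 0 of 14 called by edgeR or DESeq2 and H2-T23 the farthest from 0 (0.66). At an unadjusted p under 0.05 there were 4 of them, against 7423 of all 14681 genes tested. The H2 genes are close paralogs, and how reads shared by them were counted is not given in the sources used here.

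The promoters of 3 called class II genes are shown because the Y box, an inverted CCAAT element, is a textbook part of class II promoters. Capitals mark CTGATTGG (Y box), TGATGNAA (the C/EBP-ATF element bound by ATF4) or CACGTG (an E-box of the kind TFEB binds), searched on both strands. Counted per gene over all its starts, CTGATTGG was present in 3 of the 12 class II genes with a promoter entry (H2-Aa, H2-Eb1 and H2-Oa), against 4.70% of all 27025 genes. TGATGNAA was present in 1 (H2-Ob) against 4.51%, and CACGTG in 2 (Ifi30 and Lgmn) against 8.09%. A match describes the letters in this window, and neither binding nor which element of the promoter they belong to. Only these exact letters were counted, so that a variant of an element, such as ttgattgg in H2-Ob, was left out. The windows are chr17:34287774-34288073 (minus strand) for H2-Aa, chr17:34305617-34305916 (plus strand) for H2-Eb1 and chr17:34238655-34238954 (plus strand) for H2-Ob, in GRCm38.p6 and from RefSeq.
H2-Aa: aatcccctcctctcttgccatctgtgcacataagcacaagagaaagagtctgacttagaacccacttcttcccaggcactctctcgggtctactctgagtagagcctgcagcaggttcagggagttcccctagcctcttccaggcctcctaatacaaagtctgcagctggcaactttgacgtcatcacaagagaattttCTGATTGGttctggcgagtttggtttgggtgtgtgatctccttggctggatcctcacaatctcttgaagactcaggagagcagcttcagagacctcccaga
H2-Eb1: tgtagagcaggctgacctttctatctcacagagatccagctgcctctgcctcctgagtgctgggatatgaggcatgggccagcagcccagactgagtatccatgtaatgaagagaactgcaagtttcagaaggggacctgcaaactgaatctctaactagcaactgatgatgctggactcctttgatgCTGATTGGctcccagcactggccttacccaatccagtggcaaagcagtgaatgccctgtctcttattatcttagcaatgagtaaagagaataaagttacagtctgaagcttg
H2-Ob: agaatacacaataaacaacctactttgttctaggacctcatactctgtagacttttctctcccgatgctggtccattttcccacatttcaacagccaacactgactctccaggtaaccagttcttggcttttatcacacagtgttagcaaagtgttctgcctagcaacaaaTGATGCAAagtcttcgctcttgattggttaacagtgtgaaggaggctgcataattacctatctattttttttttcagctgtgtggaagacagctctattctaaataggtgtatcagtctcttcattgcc

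Another list held genes of the ATF4 program. ATF4 is the transcription factor that is translated when amino acids are short or the endoplasmic reticulum is stressed, and it drives amino acid import, serine and proline synthesis, and tRNA charging. Of 24 listed genes 23 were tested, and 12 fell and 0 rose, with a median of −1.07. Of the other members 2 had a positive value. The median was −1.35 in #A-59, with 17 called lower, and −0.77 in #B-20, with 3. Atf4 itself was at 289 and 279, then 115 and 121 CPM in #A-59, and at 295 and 288, then 148 and 159 CPM in #B-20 (−1.08). Asns was at 111 and 110, then 21.7 and 24.3 CPM in #A-59, and at 121 and 128, then 54.5 and 53.6 CPM in #B-20 (−1.71 ± 0.18, adjusted p 5.33e-05). Both genes started at like levels in the clones and ended lower in #A-59.

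Chac1, which encodes a glutathione-degrading enzyme, was at 28.0 and 18.0, then 1.10 and 1.08 CPM in #A-59, and at 18.8 and 14.8, then 7.39 and 3.54 CPM in #B-20 (−2.68 ± 0.53, adjusted p 0.00409). Its call was lost without a filter on low counts and without any 1 of #A-59 6 h replicate 1 or 2, #A-59 18 h replicate 1 or 2 and #B-20 18 h replicate 2, with adjusted p-values up to 0.0603. Slc7a3, a transporter of cationic amino acids, was at 14.8 and 13.6, then 0.890 and 1.51 CPM in #A-59, and at 8.61 and 8.16, then 2.98 and 2.39 CPM in #B-20 (−2.46 ± 0.33, adjusted p 0.000203). The counts of the overlapping Snx12 were 597% of those of Slc7a3. The other members that fell were the transporter gene Slc7a5 (−1.44), Aldh18a1 (−1.40) and Pycr1 (−1.34) of proline synthesis, Psph (−1.29), Psat1 (−1.07) and Phgdh (−1.02) of serine synthesis, the mitochondrial Shmt2 (−1.25), and Cebpb (−1.21). Slc7a11, the cystine transporter gene, had −2.66 (adjusted p 0.0206) at under 1 CPM in every library and was not called. Cct6a overlaps Psph with 459% of its counts. The call of Phgdh was lost without #A-59 6 h replicate 1, #A-59 18 h replicate 1 or #A-59 18 h replicate 2, and that of Psat1 without #A-59 18 h replicate 1.

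Promoters of the list are shown for Chac1, the leading gene, and for Asns and Aldh18a1 as further called members. TGATGNAA was present in 5 of the 21 genes of the list with a promoter entry (23.8%, Asns, Chac1, Pycr1, Slc7a11 and Trib3), against 4.51% of all genes. CTGATTGG was present in 8 (38.1%) against 4.70%, and CACGTG in 1 (Aldh18a1) against 8.09%. The genes of the list were written down partly because ATF4 is known to bind near many of them, so that the share is not independent of the list. The windows are chr2:119350992-119351291 (plus strand) for Chac1, chr6:7693160-7693459 (minus strand) for Asns and chr19:40588414-40588713 (minus strand) for Aldh18a1, with capitals as above.
Chac1: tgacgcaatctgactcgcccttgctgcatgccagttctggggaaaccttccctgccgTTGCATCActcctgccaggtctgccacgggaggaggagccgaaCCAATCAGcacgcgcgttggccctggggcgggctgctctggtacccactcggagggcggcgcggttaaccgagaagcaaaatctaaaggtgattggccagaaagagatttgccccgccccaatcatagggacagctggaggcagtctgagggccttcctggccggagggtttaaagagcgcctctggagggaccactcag
Asns: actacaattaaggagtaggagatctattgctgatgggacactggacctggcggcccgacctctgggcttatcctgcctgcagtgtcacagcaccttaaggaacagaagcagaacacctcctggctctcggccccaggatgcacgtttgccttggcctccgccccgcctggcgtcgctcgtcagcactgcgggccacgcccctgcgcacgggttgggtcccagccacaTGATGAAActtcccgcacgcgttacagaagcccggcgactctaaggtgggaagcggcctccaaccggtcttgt
Aldh18a1: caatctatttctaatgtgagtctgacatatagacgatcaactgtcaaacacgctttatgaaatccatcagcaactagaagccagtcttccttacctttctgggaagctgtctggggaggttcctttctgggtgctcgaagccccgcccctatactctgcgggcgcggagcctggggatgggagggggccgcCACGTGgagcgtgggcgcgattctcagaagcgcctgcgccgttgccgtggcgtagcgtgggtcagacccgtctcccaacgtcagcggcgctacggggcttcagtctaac

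In cholesterol and fatty acid synthesis the change was downward too. Of 31 genes tested, 12 fell and 0 rose, 25 passed an FDR under 0.01 downward, and the median was −0.94. The desaturase gene Fads2 was at 51.2 and 44.6, then 6.81 and 8.01 CPM in #A-59, and at 31.9 and 28.4, then 12.5 and 12.97 CPM in #B-20 (−1.92 ± 0.25, adjusted p 0.000173). Lss, lanosterol synthase, was at 143 and 137, then 36.7 and 42.7 CPM in #A-59, and at 96.9 and 90.1, then 39.8 and 47.0 CPM in #B-20 (−1.45). Msmo1, Fdft1, Cyp51, Acat2, Idi1, Hmgcs1 (−1.14), Dhcr7, Sqle (−1.10) and Nsdhl were also among those that fell. The overlapping Ctsb had 209% of the counts of Fdft1. The call of Dhcr7 was lost without #A-59 6 h replicate 1 or #A-59 18 h replicate 1, and that of Nsdhl without #B-20 18 h replicate 1 or #A-59 6 h replicate 2. Scd1, the stearoyl-CoA desaturase, was the only listed gene with a positive value (0.41, adjusted p 0.00103, under the fold threshold).

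Ribosome biogenesis and DNA replication had smaller differences, with a negative value in nearly all members. All 55 ribosome biogenesis genes were tested, 54 had a negative value, 47 passed an FDR under 0.01 downward, and 16 passed the fold threshold as well, with a median of −0.82. Gar1, a protein of the box H/ACA particles that guide pseudouridylation, was at 76.4 and 70.6, then 22.2 and 29.6 CPM in #A-59, and at 93.9 and 103, then 32.3 and 47.8 CPM in #B-20 (−1.39 ± 0.13, adjusted p 2.81e-05). Nolc1, a nucleolar phosphoprotein, had −1.27 and Bop1, of the large-subunit assembly complex PeBoW, −1.24. Mroh1 overlaps Bop1 and had 80.9% of its counts. Because many members lay near the fold threshold, the number called moved to 9 without #A-59 18 h replicate 1, to 10 without #B-20 18 h replicate 1 and to 25 without #B-20 18 h replicate 2.

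For DNA replication 43 of 43 genes had a negative value, 28 passed an FDR under 0.01, and the median was −0.71. The clones differed, with medians of −0.99 in #A-59 and −0.38 in #B-20. The 4 called genes were Mcm2 (−1.06) and Mcm3 (−1.01) of the replicative helicase, its loader gene Cdc6 (−1.05) and the origin recognition gene Orc1 (−1.04). The counts of Prpf38a, which overlaps Orc1, were 166% of those of Orc1. Mcm2 was at 385 and 258, then 107 and 112 CPM in #A-59, and at 304 and 282, then 178 and 210 CPM in #B-20. Without #A-59 6 h replicate 1, #A-59 18 h replicate 1 or #A-59 18 h replicate 2 only 1 of the 4 calls was left. Mitotic genes had a median of −0.22 with 0 of 55 called by edgeR or DESeq2 and Spc24 farthest from 0 (−0.80). An unadjusted p under 0.05 was found for 28 of the 55, 25 of them downward, against 7423 of all 14681 genes tested. Cyclins, CDKs and inhibitors of G1 had 0 of 27 called by either tool and a median of −0.17, with Ccng2 at 0.99 and 20 at an unadjusted p under 0.05, 9 upward and 11 downward. In bulk RNA, fewer cells in S phase and less of these transcripts in each cell cannot be told apart.

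**Figure D3:**
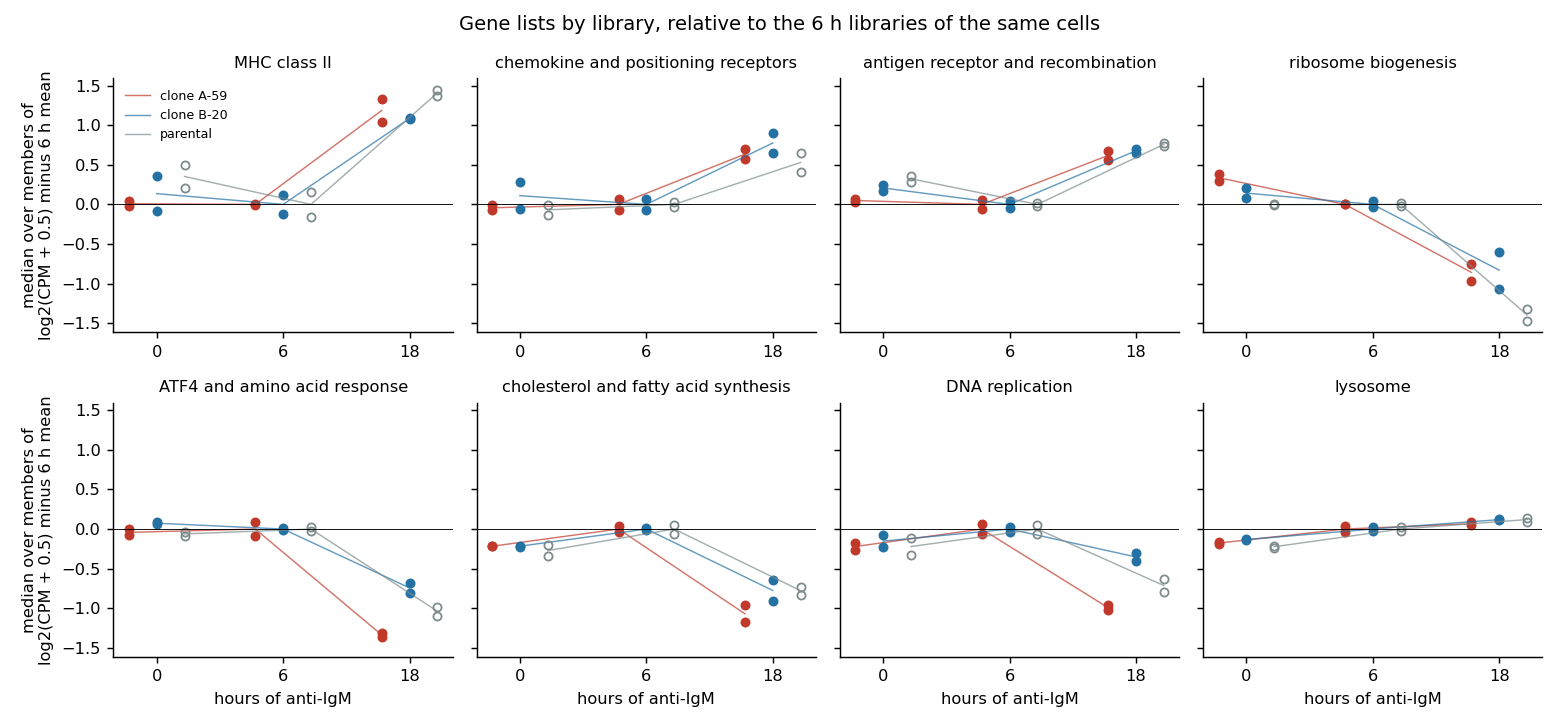
Median over the members of a list of log2(CPM + 0.5) minus the mean of the same genotype at 6 h, against hours of stimulation, with 1 point per library of #A-59 (red), #B-20 (blue) and parental cells (open grey circles). At 18 h DNA replication lies at −1.02 and −0.96 in #A-59 against −0.40 and −0.30 in #B-20, whereas MHC class II lies between 1.05 and 1.33 in all 4 clone libraries.

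Receptors for chemokines and positioning cues guide B cells between follicle, T cell border and blood. Of 16 tested, 6 rose and 1 fell (median 0.79). Among those that rose were Ccr6 (2.10), Ccr1 (1.97), Ccr7 (1.96), the oxysterol receptor gene Gpr183 (1.64) and the sphingosine-1-phosphate receptor gene S1pr1 (1.15), and Cxcr4 fell (−1.12 ± 0.21, adjusted p 0.00175). Ccr7 was at 0.568 and 0.724, then 2.09 and 3.19 CPM in #A-59, and at 0.492 and 1.04, then 2.81 and 2.61 CPM in #B-20 (1.96 ± 0.26, adjusted p 0.000189). These levels rest on 10 to 16 counts per library at 6 h and 40 to 79 counts at 18 h. S1pr1 was at 5.64 and 6.15, then 15.3 and 12.1 CPM in #A-59, and at 21.1 and 18.3, then 49.8 and 33.0 CPM in #B-20. The call of Cxcr4 was lost without #A-59 6 h replicate 1 or #A-59 18 h replicate 1. The counts of Ubac2, which overlaps Gpr183, were 1037% of those of Gpr183.

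Antigen receptor genes had 4 of 16 called, all higher, and a median of 0.71. They were the inhibitory receptor genes Siglecg (1.36), Cd22 (1.12) and Fcgr2b (1.09), and Vpreb3 (1.85), which encodes a chaperone of immunoglobulin light chains. Cd22 was at 281 and 265, then 667 and 614 CPM in #A-59, and at 195 and 197, then 395 and 376 CPM in #B-20. The PI3K and FoxO list held 13 tested FoxO factors and PI3K pathway genes and 10 tested genes known as FoxO targets. FoxO factors switch such targets on when PI3K signalling is low. Of the 23 genes 4 rose and 0 fell (median 0.56). They were the targets Fbxo32 (1.37), Sesn3 (1.35) and Klf2 (1.20), and Pik3ip1 (1.23) of the pathway part. Klf2, a factor of B cell quiescence and homing, was at 73.1 and 62.8, then 177 and 165 CPM in #A-59, and at 42.1 and 51.2, then 97.0 and 93.7 CPM in #B-20. It was the only called gene among 10 Krüppel-like factors (10%, against 6.33% of all genes tested), where Klf3 had 0.99.

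Of 18 factors of B cells and plasma cells, Lmo2 (1.597) and Mef2c (1.06) rose and the plasma cell surface gene Sdc1 fell (−1.01). Without #A-59 6 h replicate 1 or #A-59 18 h replicate 1 only 1 of the 3 calls was left, and for Sdc1 the call was lost without each of 6 of the 8 libraries. Id3, an inhibitor of E proteins, rose (1.16) as the only one of 5 genes of its list, and missed the threshold without #A-59 6 h replicate 2. Among 25 genes of costimulation and cytokines, Cd83 (1.16), Il10ra (1.15) and Icosl (1.13) rose and Ccl22 fell. The call of Cd83 was lost without #A-59 6 h replicate 1 or 2, #A-59 18 h replicate 1 or #B-20 18 h replicate 1.

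Immediate early genes, which respond to ERK and calcium within minutes of BCR ligation, had 4 of 23 called, all higher, with a median of 0.49. These were Egr3 (1.79), Btg1 (1.36), Zfp36 (1.21) and Zfp36l1 (1.02), the last 2 being RNA-binding proteins that destabilise messages. Egr1 was at 1.59 and 1.03, then 8.95 and 2.95 CPM in #A-59, and at 44.7 and 20.5, then 71.4 and 21.9 CPM in #B-20 (1.07, adjusted p 0.199), with replicate 1 above replicate 2 in each group. Egr2 (2.19, adjusted p 0.0229) and Fos (1.35) had the same order of replicates and were not called. Without #A-59 6 h replicate 1 only 1 of the 4 calls was left. Of the ERK feedback genes, the phosphatase genes Dusp6 (1.99) and Dusp5 (1.34) and Spred3 (1.04) rose among 14 tested. Dusp6 was at 9.76 and 7.30, then 46.3 and 29.8 CPM in #A-59, and at 11.9 and 9.66, then 42.5 and 33.9 CPM in #B-20 (1.99 ± 0.17, adjusted p 1.64e-05). Spry4 was called lower on 1 and 2 counts and then 0 and 0 in #A-59 and 18 and 10 counts and then 5 and 5 in #B-20, and no fold is given. The number called in this list was 2 without #A-59 18 h replicate 1 or #B-20 18 h replicate 1.

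In the Myc network Mxd4, a partner of Max that opposes Myc, rose (1.55, 1 of 12 tested). Myc itself was at 59.7 and 43.6, then 68.6 and 38.9 CPM in #A-59, and at 108 and 74.2, then 103 and 69.6 CPM in #B-20, a difference of 0.00 ± 0.20. In parental cells it was at 162 and 158, then 72.7 and 43.1 CPM (−1.48), and the difference from the clones had an adjusted p of 0.0602. Of 17 tested genes of the Bcl-2 family, Bmf, a BH3-only activator of apoptosis, rose (1.07), and the call was lost without #B-20 6 h replicate 1 or #B-20 18 h replicate 1. Bax had −0.43 (adjusted p 0.00511), Bcl2l1 0.51 (adjusted p 0.0121), Bcl2 0.33 (adjusted p 0.0786) and Bcl2l15 −0.18 (adjusted p 0.329), all under the fold threshold. Il7r and Hrk were too low to be tested, with 0 to 1 and 0 to 2 counts per library. Of the caspases and death receptors 0 of 17 were called by edgeR or DESeq2 (median 0.23), with Cycs at −0.64. An unadjusted p under 0.05 was found for 12 of the 17, against 7423 of all 14681 genes tested. Among 16 p53 targets Trp53inp1 rose (1.55). The share called, from 1 gene each, was 8.33% in the Myc network, 5.88% in the Bcl-2 family and 6.25% of p53 targets, against 6.33% of all genes tested.

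Lysosomal and autophagy genes are the classic targets of TFEB. Of 62 lysosomal genes tested 2 rose, the protease gene Ctsh (1.22) and Gm2a (1.75), the activator of ganglioside degradation, and 0 fell, with a median of 0.10. The median was 0.20 for hydrolases, 0.14 for membrane proteins and −0.12 for V-ATPase subunits. The share called was 3.23%, against 6.33% of all genes. By the adjusted p alone, without the fold limit, 25 passed, 19 with a positive and 6 with a negative value. Leaving out #A-59 6 h replicate 1 or #A-59 18 h replicate 2 gave 4 calls. Ctsh was at 111 and 126, then 282 and 289 CPM in #A-59, and at 60.0 and 72.6, then 144 and 147 CPM in #B-20. Of 40 autophagy genes Calcoco1 rose (1.20) and 0 fell (median 0.18), a share called of 2.5% against 6.33% of all genes. A positive value was found for 33 of the 40, and 15 passed the adjusted p alone, 14 of them with a positive value. Of 7 genes of the MiT/TFE factors and folliculin-Rag 0 were called by edgeR or DESeq2, with Tfe3 farthest from 0 (0.39, adjusted p 0.00219) and the only 1 at an unadjusted p under 0.05.

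In the remaining lists few members were called, 3.57% for glycolysis and 9.09% for chaperones, against 6.33% of all genes tested. Slc16a1, a lactate transporter gene, fell (−1.35) among 28 genes of glycolysis. Their median was −0.08. It was negative in #A-59 (−0.37) but positive in #B-20 (0.21) and ran from −0.39 to 0.11 over the alternatives. On log2(CPM + 0.5) relative to the 6 h mean, the members' median was 0.55 in 1 library of #B-20 at 18 h and −0.35 in the other. Among 11 chaperones of the endoplasmic reticulum Sdf2l1 fell (−1.17), Hspa5 had −0.97 and the median was −0.74. By the adjusted p alone, without the fold limit, 9 of the 11 passed, all with a negative value. By edgeR or DESeq2, 0 were called of 16 NF-κB genes (median 0.34, Cyld 0.77), 22 interferon-stimulated genes (median 0.52, Rtp4 1.19, with at most 0.131 CPM in #B-20) and 7 mitochondrially encoded genes (median 0.09, mt-Nd6 0.38). At an unadjusted p under 0.05 there were 12, 14 and 2 genes of these lists, against 7423 of all 14681 genes tested. The chaperone list had 3 calls without #B-20 6 h replicate 1 or #B-20 18 h replicate 2 and 2 without #A-59 6 h replicate 2, #A-59 18 h replicate 2 or #B-20 6 h replicate 2, and the call of Sdf2l1 was lost without #A-59 6 h replicate 1. The glycolysis list had 2 calls without #A-59 18 h replicate 2 or #B-20 18 h replicate 2. The Myc network had 2 without either #A-59 6 h library or #A-59 18 h replicate 1, and the Krüppel-like factors had 2 without either #B-20 18 h library or #B-20 6 h replicate 2. The G1 list had 1 without #A-59 6 h replicate 2, #A-59 18 h replicate 2, #B-20 6 h replicate 1 or #B-20 18 h replicate 2.

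**Figure D4:**
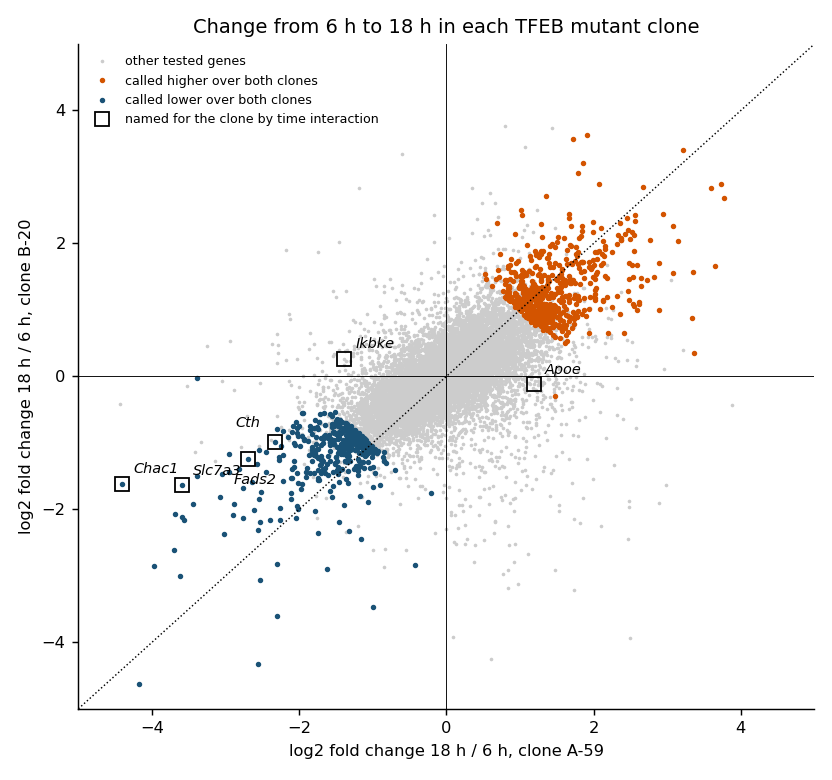
Log2 fold change of 18 h over 6 h in #B-20 (vertical) against #A-59 (horizontal), with 1 point per gene, genes called over both clones in colour, the diagonal dotted and the genes named for the difference between clones boxed. Pearson's r across 15318 genes was 0.54, a description over genes that share libraries within each clone, and 12 genes lie outside the axes.

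Whether the clones changed alike was read in one model of group means over all 18 libraries (15318 genes tested). #A-59 had 1381 calls (9.02%), 678 higher and 703 lower, and #B-20 had 682 (4.45%), 423 higher and 259 lower. Of these, 416 were called in the same direction in both, 252 higher and 164 lower, which is 30.1% of the calls in #A-59 and 61.0% of the calls in #B-20. The number called in opposite directions was 0. Genes called in the pair of clones had median log2 fold changes of 1.38 in #A-59 and 1.23 in #B-20 where higher, and of −1.46 and −1.09 where lower. The log2 fold changes followed the GC content of the transcripts with Spearman's rho −0.15 in #A-59 and 0.21 in #B-20 across genes, and 0.022 in the joint contrast, and the part of GC content in the difference between clones was not tested gene by gene.

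The test of the difference itself (#B-20 minus #A-59) called 21 genes (0.137%), 19 with a positive and 2 with a negative value. All 19 had a negative log2 fold change in #A-59, and 6 belonged to the ATF4 list (Chac1, Slc7a3, Asns, Slc7a5, Aldh18a1 and Atf5), of which #A-59 had 17 members called lower, #B-20 3 and parental cells 11. Among genes with at least 5 CPM on average Chac1 differed most, with −4.40 in #A-59 and −1.62 in #B-20 (difference 2.78), followed by Slc7a3 (1.95), the kinase gene Ikbke (1.65), Fads2 (1.45) and Cth (1.34), an enzyme of cysteine synthesis. Ikbke was at 8.89 and 7.90, then 3.09 and 3.37 CPM in #A-59, and at 11.02 and 10.5, then 12.9 and 12.9 CPM in #B-20. Cth was at 44.1 and 52.1, then 8.69 and 10.5 CPM in #A-59, and at 39.4 and 39.1, then 22.0 and 17.7 CPM in #B-20. Below 5 CPM lay the pseudogene Rps13-ps2 (1.97) and Gm37755 (−1.77). Apoe, which encodes a lipid carrier, went the other way (−1.31), at 60.0 and 65.6, then 141 and 144 CPM in #A-59 and at 28.4 and 32.6, then 25.7 and 30.2 CPM in #B-20. DNA replication genes had medians of −0.99 in #A-59 and −0.38 in #B-20, with 21 and 0 called lower in edgeR (28 of 43 at an unadjusted p under 0.05 in #B-20, 0 calls by DESeq2), and Cdc6, Gins2, Cdc45 and Uhrf1 were among the 21 genes.

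The number of genes called for the difference between the clones was not stable. In edgeR it was 0 in a fit to the 8 libraries compared (2175 genes at an unadjusted p under 0.05, 45 calls by DESeq2 in all 18 libraries), and 0 without #A-59 18 h replicate 1 or without #B-20 6 h replicate 2, the library that stood apart. It was 10 after a correction for GC content, 4 without #B-20 18 h replicate 1 and 292 without #A-59 6 h replicate 2.

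**Figure D5:**
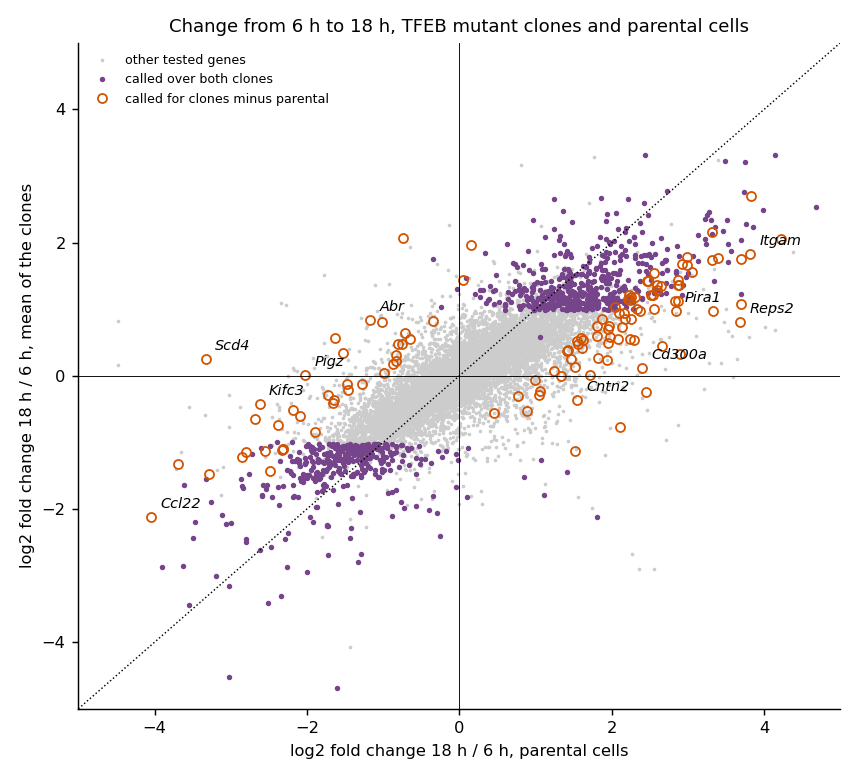
Log2 fold change of 18 h over 6 h as the mean of the clones (vertical) against parental cells (horizontal), with 1 point per gene, the diagonal dotted and the genes called for the difference ringed. Of the 929 genes called in the clones, 652 had the larger absolute value in parental cells, and 7 genes lie outside the axes.

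Parental cells, at the same times and with no library in common, had 2061 calls (13.5%), 1155 higher and 906 lower. Of the 929 genes called in the clones, 730 were called in the same direction in parental cells (78.6% of the clones' and 35.4% of the parental calls), and 917 had the same sign (98.7%), against 84.1% of all 14681 genes. The median absolute log2 fold change of the 929 was 1.27 in the clones and 1.58 in parental cells. The medians of the lists in the clones and in parental cells were 1.24 and 1.41 for MHC class II. They were −1.07 and −1.03 for ATF4, and −0.94 and −0.83 for cholesterol and fatty acid synthesis. These medians compare changes and not levels. In parental cells H2-Aa was at 92.3 and 123, then 222 and 246 CPM. Ciita was at 18.5 and 25.2, then 81.6 and 84.5 CPM there, and both genes lay above both clones at each time. For ribosome biogenesis the parental median was −1.43 with 36 called lower, against −0.82 with 16 in the clones, and of its members Nolc1 was called for the difference (1.07).

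The difference between the clones' and the parental change was called for 119 genes (0.777%), 40 higher and 79 lower in the clones. Loss of TFEB cannot be told apart here from effects of editing and cloning. In 114 of them the absolute change was larger in parental cells, and 103 of the 119 were called there and 46 in the clones, 43 of them in both. The 5 with the larger change in the clones were Ccr7, the interleukin-21 receptor gene Il21r, Trpm5, Gm1043 and Gm6145, named after their values were seen. Without parental 6 h replicate 1 the number was 62, without parental 6 h replicate 2 it was 73 and without parental 18 h replicate 2 it was 66.

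Ccr7 was at 6.33 and 7.81, then 7.31 and 8.34 CPM in parental cells, above both clones at both times. The difference in change was 1.80, on the low counts given above. At 0 h Ccr7 was at 1.30 and 1.53 CPM in parental cells, and at 0.619 to 0.724 CPM in the clones. Its level in parental cells had thus risen by 6 h, before the times compared here. Ccl22 fell from 2242 and 1953 CPM to 158 and 96.9 CPM in parental cells, so that the libraries at 18 h shared a range with those of the clones while those at 6 h lay above them (difference 1.92). Plac8 rose in parental cells from 10.2 and 9.08 CPM to 146 and 127 CPM (difference −1.13), and Itgb7 (−1.17) and Mxd4 (−1.003) likewise rose less in the clones. Reps2 was at 1.70 and 2.13, then 23.9 and 25.5 CPM in parental cells and had the lowest difference (−2.87), followed, at 5 CPM or more on average, by the inhibitory receptor gene Cd300a (−2.29), Itgam (−1.99), the integrin αM chain, Cntn2 (−1.91) and Pira1 (−1.86). Among genes with at least 5 CPM on average over the 12 stimulated libraries, the highest differences were those of Scd4 (3.57), Kifc3 (2.198), Pigz (2.04) and Abr (2.01). Scd4 was at 26.8 and 28.1, then 2.58 and 2.85 CPM in parental cells and at 0.596 to 1.78 CPM in the clones over both times, and Kifc3 was at 97.6 and 99.6, then 14.4 and 17.5 CPM in parental cells against 0.209 to 1.34 CPM in the clones. The values of Kifc3, Scd4, Pira1 and Cd300a are uncertain, since reads can be shared with overlapping genes or close paralogs. Abr had 0.85 in the clones and −1.17 in parental cells. Over the alternatives the call was lost 16 times for Mxd4, 4 times for Itgam, 2 times for Ccr7 and 1 time for Kifc3.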

How the data were processed

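The authors deposited whole-number counts of reads per Ensembl gene for each library, without normalization. Per the study's methods they prepared non-stranded mRNA libraries, sequenced them single-end, aligned to GRCm38 with STAR and counted with featureCounts. The submitters' processing notes name bcl2fastq 2.20.0.422, STAR 2.5 and featureCounts 1.5.0-p1, and the counting options are not given in the sources used here. The files hold no totals or unassigned reads. Symbols were given for genes with 99.6% of the counts, and coordinates and promoters come from RefSeq on GRCm38.p6, matched by symbol.

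In R 4.3.3, edgeR 4.0.16 was used with filterByExpr, TMM and a robust quasi-likelihood fit. The contrast of both clones was fitted to their 8 stimulated libraries with terms for clone and time (14681 genes, 5 residual degrees of freedom). Single clones, parental cells and differences were fitted to all 18 libraries with 9 group means (15318 genes, 9 degrees of freedom). P-values were adjusted per contrast by Benjamini-Hochberg over all genes tested. SEs were derived from the F statistics. CPM were scaled over all 18 libraries. Libraries were grouped by their labels.

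The comparison, the gene lists and the tests were chosen with earlier results of these data known. A few named genes are not reported here. Lists are described by counts and medians, with no set test. The genes named were Tfeb and genes the study names, the 15 genes with the largest change in each direction among called genes with at least 5 CPM on average and no overlap between times, called members of the lists (or the member farthest from 0 where none was called), and the 5 largest called differences in each direction, at 5 CPM or more on average, between clones and between clones and parental cells. Alternatives were DESeq2 1.42.0, DESeq2's size factors, no filter, at least 10 counts in every library, another set of libraries in the fit, a replicate block, a loess GC correction (span 0.5) and each library left out. Counts of 0 allow up to 3 counts, for counting error only, since reads with no molecular identifier need not stem from separate molecules. On simulated counts with 200 genes changed by 2 on the log2 scale, 200 were recovered with 0 false calls in the contrast of the clones (14380 genes), and 190 with 1 false call in that of clones minus parental cells (14819 genes). The changed genes had a mean above 1 CPM, and apart from the change a gene had the same mean in all libraries, with no difference between clones. Recovery at lower levels, and false calls where clones differ or a library stands apart, were thus not tested.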

Additional observations from a re-analysis of the deposited data

Results flagged for a closer look

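The difference between the clones in their change from 6 h to 18 h was tested as an interaction and called 21 genes. The named genes with such a difference (#B-20 minus #A-59, log2) were Chac1 (2.78), Slc7a3 (1.95), Ikbke (1.65), Fads2 (1.45), Cth (1.34), Slc7a5 (1.13), Aldh18a1 (1.07), Asns (1.06), Cdc6 (1.01) and Apoe (−1.31). In the alternatives the adjusted p of Chac1 ranged from 6.85e-17 to 0.104 and that of Apoe from 1.05e-10 to 0.0757. The clones' changes followed GC content with opposite signs (rho −0.15 for #A-59, 0.21 for #B-20). Calls were lost without #B-20 6 h replicate 2, the library that stood apart, but also without #A-59 18 h replicate 1 or #B-20 18 h replicate 1. Each such fit leaves 1 library in a group, so a lost call does not single out the library left out. Whether GC content or that 6 h library caused the difference between the clones was not tested.

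The difference between the clones and parental cells in the same change called 119 genes, in which loss of TFEB and effects of editing and cloning cannot be told apart. Positive differences (clones minus parental, log2) were found for Scd4 (3.57), Kifc3 (2.198), Pigz (2.04), Abr (2.01), Ccl22 (1.92) and Ccr7 (1.80). Negative differences were found for Reps2 (−2.87), Cd300a (−2.29), Itgam (−1.99), Cntn2 (−1.91), Pira1 (−1.86), Itgb7 (−1.17), Plac8 (−1.13) and Mxd4 (−1.003). Groups of 2 libraries were too small for a search for outlying samples.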

How the results depend on the processing

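For the clones at 18 h against 6 h, the number of calls was 911 with DESeq2, 926 with its size factors, 1077 without a filter, 702 with at least 10 counts in every library, 1080 in the fit to 18 libraries and 967 after the GC correction, and 676 to 964 with 1 library left out. Of the 929 genes, 654 to 814 remained called with 1 library left out, and 688 to 916 under the other settings. The number of lower genes was 251 to 445 with 1 library left out, the lowest without #A-59 18 h replicate 1. With the replicate number as a block there were 928 calls, and deviations of same-numbered libraries correlated at 0.0762 to 0.325, over 0.1 in 5 of 6 pairs of groups. A pairing was thus not shown by all pairs, and the labels do not say what a number marks. The leading genes kept their side of the threshold in 443 of 450 checks, and called list members in 1316 of 1420, with no change of sign. With 1 library left out, #A-59 alone gave 945 to 1717 calls, #B-20 alone 431 to 897 (431 without #B-20 18 h replicate 1) and parental cells 1712 to 1960. The interaction, with 21 calls, had 45 with DESeq2, 158 without a filter, 44 with the replicate block, 10 with the GC correction, 0 in the fit to the groups compared and 0 to 292 with 1 library left out. Clones minus parental cells, with 119, had 183 without a filter and 62 to 150 with 1 library left out. Causes were not tested. Genes with few counts, such as H2-Ab1 and Spry4, limit what depth can show.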
